A study of Mus musculus with 2 samples.

Results

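The S100 proteins followed here were 8 genes listed by name, *S100b*, *S100a1*, *S100a3*, *S100a4*, *S100a6*, *S100a10*, *S100a11* and *S100a13*, all of which were found among the 32285 genes counted in melanocytes of the mouse hair follicle (HF). No cutoff on a measured value set the list, but earlier results of these data were known when the genes were chosen. Cells were taken from 2 droplet single-cell RNA sequencing libraries, 1 per condition, each made from GFP+ cells sorted from 4 combined mice of genotype Dct-rtTA; tetO-H2B-GFP, in which doxycycline switches on a nuclear GFP in cells that use the *Dct* promoter. Early-anagen melanocyte stem cells (McSCs) came from back skin 4 days after depilation of adult mice, and bulb melanocytes came from dissected hair bulbs of anagen VI HFs of mice 5 weeks old. Both groups had received doxycycline chow, and neither carried a further mutation. The early-anagen library used version 3 of the 3′ kit and a trypsin dissociation of the epidermis. The bulb library used version 2 and collagenase with dispase. No depilation is described for the bulb mice. HF stage, depilation, age, kit and dissociation therefore cannot be told apart.

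A cell counted as a melanocyte when it had at least 1 unique transcript count (UMI) of *Dct*, a melanin enzyme, fewer than 3 UMIs of *Krt10* and *Krt14* together, less than 5% mitochondrial UMIs and more than 10000 (early anagen) or 5000 (bulb) UMIs. This left 2785 of 11010 early-anagen barcodes and 3734 of 4327 bulb barcodes, with medians of 24528 and 14286.5 UMIs per cell. All 8 fixed melanocyte markers were found in over 50% of the cells of each group. Epidermal cells had at least 2000 CPM (UMIs scaled to a common library total) of *Krt5*, *Krt10* and *Krt14* together. They also met the same mitochondrial and UMI limits. Such cells numbered 113 in early anagen and 1 in the bulb, so melanocytes were compared with epidermal cells in early anagen only. Without those limits, 710 early-anagen and 4 bulb barcodes reached that keratin level. Only 1 barcode was shared by the libraries.

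S100 proteins are small calcium-binding proteins, each a dimer of EF-hand subunits, that change shape on binding calcium and then grip target proteins. *S100b* is a classical marker of neural crest derivatives, and its protein is used as a marker of melanoma. *S100a10* (p11) no longer binds calcium and holds annexin A2 at membranes with AHNAK, *S100a11* binds annexin A1, *S100a6* binds the calcyclin-binding protein CACYBP, *S100a4* binds non-muscle myosin IIA, *S100a13* takes part in the release of FGF1, *S100a1* is best known from calcium handling in muscle, and *S100a3* is a cysteine-rich protein of the hair cuticle.

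Of these genes, 7 lie on mouse chromosome 3 (GRCm38, GENCODE vM21 coordinates) in the S100 cluster, and *S100b* lies apart at chr10:76253853-76261159 on the plus strand, overlapping *Dip2a* on the other strand. *S100a1* (chr3:90511034-90514392, minus strand) and *S100a13* (chr3:90514435-90524581, plus strand) are head-to-head neighbours. *S100a3* (chr3:90560578-90602702), *S100a4* (chr3:90603771-90606045) and *S100a6* (chr3:90612882-90624181) follow on the plus strand, and *S100a11* (chr3:93520488-93526287) and *S100a10* (chr3:93555080-93564643) form a second pair further along. The *S100a3* model contains *S100a2* on the same strand, so reads of these genes may have been split between them.

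Promoter sequence was held by RefSeq (GRCm38.p6) for 7 of the 8 genes, not for *S100a10*. The stretch between the RefSeq starts of *S100a1* and *S100a13*, which lie 105 bases apart, is shown because these neighbours changed differently between the conditions. It spans chr3:90514331-90514434 and is printed on the plus strand, with *S100a1* reading to the left and *S100a13* to the right. The 250 bases before the start of *S100a11* (chr3:93520246-93520495, plus strand) are shown for the gene that was much lower in bulb melanocytes.
S100a1 to S100a13: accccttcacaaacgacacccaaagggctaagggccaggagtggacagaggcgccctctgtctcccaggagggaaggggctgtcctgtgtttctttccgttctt
S100a11: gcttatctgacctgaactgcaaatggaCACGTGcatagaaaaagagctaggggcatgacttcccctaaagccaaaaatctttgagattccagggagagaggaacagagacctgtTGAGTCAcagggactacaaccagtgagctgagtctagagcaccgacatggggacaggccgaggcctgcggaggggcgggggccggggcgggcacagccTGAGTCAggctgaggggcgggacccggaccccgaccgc
Capitals mark matches to the motifs searched on both strands in 250 bases before each start. CATGTG, the core of the M-box used by MITF, was in 12.3% of all 32851 promoter windows and in 1 of the 10 windows of these genes, an upstream start of *S100a3*. CACGTG was in 6.02% of windows and 223 bases before the *S100a11* start. ACAAAG, a SOX core, was in 16.5% of windows and in 1 window, again of *S100a3*. TGANTCA, the AP-1 element, was in 6.75% of windows and lay 136 and 38 bases before the *S100a11* start. None of these letters stood between the starts of *S100a1* and *S100a13*.

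In early-anagen McSCs the summed UMIs gave an order of levels in which *S100a10* was highest at 610.2 CPM, followed by *S100a1* at 241, *S100a11* at 176, *S100a13* at 154, *S100a6* at 68.8, *S100b* at 14.2, *S100a4* at 3.06 and *S100a3* at 0.674 CPM. Each 3′ UMI stands for 1 transcript whatever its length, so these levels were not divided by gene length, although capture can still differ between genes. The 95% Poisson intervals of neighbours in this order did not overlap. In bulb melanocytes the order was *S100a1* at 1870.5, *S100a10* at 802, *S100a13* at 166, *S100a6* at 32.6, *S100a11* at 32.4, *S100b* at 20.2, *S100a3* at 14.5 and *S100a4* at 0.125 CPM. Here *S100a6* and *S100a11* were inside each other's interval. With 1 library per condition all intervals cover counting error only, no test across samples was possible, and a gene was called changed when it differed at least 2-fold.

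Part of the bulb signal came from very few cells. Among the cells of the melanocyte rule, 12 in early anagen and 23 in the bulb held at least 10 UMIs of 16 epidermal and hair matrix markers, a limit set after the data had been seen, and these are called keratinocyte-marker cells. In the 23 bulb cells the summed melanocyte markers reached 13060.5 CPM, against 67709 in the other bulb melanocytes. Epidermal markers were at 4363 against 19.4 and hair matrix and shaft markers at 830.4 against 6.73. These last differences follow from the rule, since such markers picked the cells. *S100a6* stood at 6083 CPM in them, *S100a3* at 2505, *S100a11* at 2287, *S100a10* at 1829.6, *S100a1* at 788, *S100a13* at 109 and *S100b* at 0. Although they held 0.509% of the UMIs, they held 95% of all *S100a6*, 88.1% of *S100a3* and 36.0% of *S100a11* UMIs of the bulb group, but 0.214% of *S100a1* and 0.334% of *S100a13*. In early anagen the 12 cells held 94.1% of *S100a3* UMIs, of which 45 of 51 were in 1 cell, and 1.65% of *S100a6*. Whether such cells are doublets, keratinocytes with free melanocyte RNA or melanocytes was not tested, so the values of the 8 genes that moved most with them are given with and without them.

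**Figure D1:**
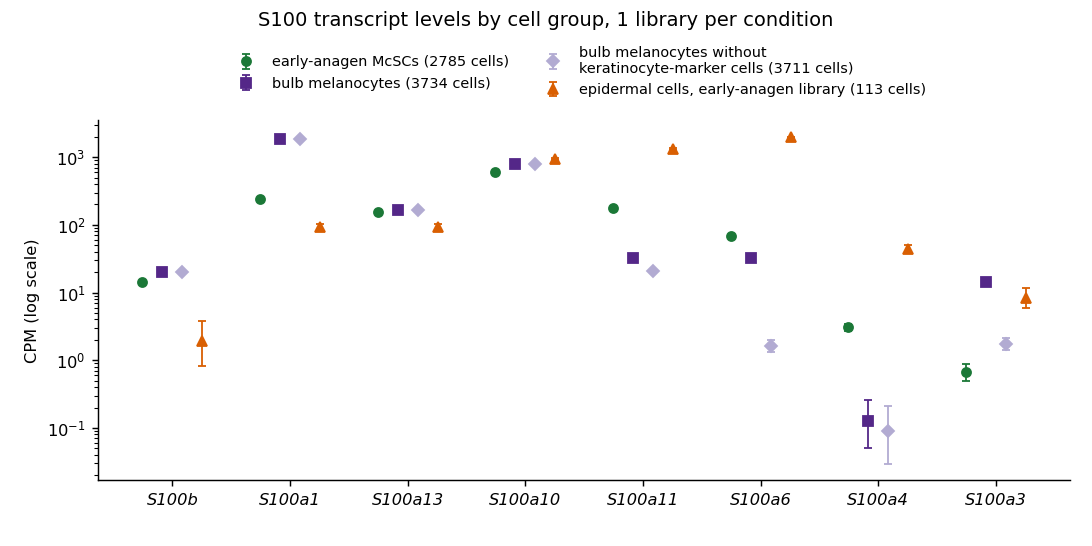
Summed transcript level (CPM, log axis) of each S100 gene in early-anagen McSCs, bulb melanocytes with and without the keratinocyte-marker cells, and epidermal cells of the early-anagen library; bars are exact 95% Poisson intervals of 1 library. *S100a1* stands highest in bulb melanocytes, *S100a6* and *S100a11* highest in epidermal cells, and *S100a6* in the bulb drops from 32.6 to 1.64 CPM without the 23 keratinocyte-marker cells.

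The first comparison asked how the S100 genes differ between activated stem cells and mature pigment-making cells. *S100a1* was far higher in bulb melanocytes, *S100a11* far lower, and *S100a10*, *S100a13* and *S100b* lay within 2-fold. *S100a6* and *S100a4*, found in part of the McSCs, were under 2 CPM in bulb melanocytes once the keratinocyte-marker cells were left out. Of the 8 genes, 7 reached 10 CPM in either group, *S100a3* in the bulb alone. Of the 7, 2 (*S100a1* and *S100a3*) were at least 2-fold higher in the bulb, beside 16.3% of the 8020 genes with at least 10 CPM in either group, and 2 (*S100a11* and *S100a6*) were at least 2-fold lower, beside 28.7% of those genes. Without the keratinocyte-marker cells 6 members reached that limit, of which 1 (*S100a1*) was higher and 2 (*S100a11* and *S100a6*) were lower, beside 16.2% and 28.8% of all genes. *S100a4* stayed under the limit and was lower with and without those cells. The median log2 ratio was 0.25 over the 8 genes, with no limit on level, and -0.18 over all genes with at least 10 CPM. Over the 7 members at that limit it was 0.39, and over the 6 without the keratinocyte-marker cells 0.25.

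*S100b* was low in both groups. Its level was 14.2 CPM (13.3 to 15.0) in McSCs and 20.2 CPM (19.1 to 21.5) in bulb melanocytes (log2 ratio 0.51, 0.39 to 0.64). When each cell was thinned to 5000 UMIs the log2 ratio was 0.05. The thinned share of cells with a UMI was 7.18% (6.25 to 8.20) in early anagen and 6.59% (5.81 to 7.43) in the bulb, and the intervals overlap. The unthinned shares were 21.0% and 15.2%.

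*S100a1* was the member with the clearest excess in the bulb. It went from 241 CPM (238 to 245) in McSCs to 1870.5 CPM (1859 to 1882) in bulb melanocytes, a 7.75-fold difference and a log2 ratio of 2.95 (2.93 to 2.98). The value was 2.96 without the keratinocyte-marker cells. At 5000 UMIs per cell *S100a1* was found in 65.0% of McSCs (63.2 to 66.8) and in 99.4% of bulb melanocytes (99.1 to 99.6), and 83.6% of bulb melanocytes but 4.22% of McSCs had 5 or more UMIs, both without the keratinocyte-marker cells.

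*S100a13*, whose start lies 105 bases from that of *S100a1* on the other strand, did not follow it. Its level was 154 CPM (151 to 157) in McSCs and 166 CPM (163 to 169) in bulb melanocytes (log2 ratio 0.11, 0.07 to 0.15). The sign of this small difference turned when cells were thinned, when cells were weighted equally and when the total was taken without mitochondrial, ribosomal protein and melanocyte genes. It was found in 55.2% of thinned McSCs (53.3 to 57.0) and 53.3% of thinned bulb melanocytes (51.7 to 55.0). *Fgf1*, which encodes the growth factor that S100A13 helps to release, had 17 UMIs in all McSCs and 6 in all bulb melanocytes.

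The annexin-binding pair *S100a10* and *S100a11*, separated by a short stretch of chromosome 3, parted. *S100a10* was at 610.2 CPM (605 to 616) in McSCs and 802 CPM (794 to 809) in bulb melanocytes (log2 ratio 0.39, 0.38 to 0.41). *S100a11* was at 176 CPM (173 to 179) in McSCs and 32.4 CPM (30.9 to 33.9) in bulb melanocytes (log2 ratio -2.45, -2.52 to -2.37). Without the keratinocyte-marker cells the bulb level was 20.8 CPM (19.6 to 22.1) and the log2 ratio -3.08, which is 8.45-fold lower than in McSCs. The thinned share of *S100a11*-positive cells was 45.0% (43.2 to 46.9) in McSCs and 8.73% (7.84 to 9.69) in bulb melanocytes, both without those cells.

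*S100a6* and *S100a4*, neighbours in the cluster, were both concentrated in a minority of McSCs. *S100a6* was at 68.8 CPM (67.0 to 70.7) in McSCs and 32.6 CPM (31.1 to 34.1) in bulb melanocytes (log2 ratio -1.08). Leaving out the keratinocyte-marker cells moved the bulb level to 1.64 CPM (1.32 to 2.01) and the ratio to 41.6-fold lower (log2 -5.38). In thinned cells without them, *S100a6* was found in 15.3% of McSCs and 0.647% of bulb melanocytes. The latter share lay between those of *Lgals7* (0.593%) and *Sfn* (0.674%), keratinocyte genes picked after their values had been seen. Other listed keratinocyte markers ran from 0 UMIs (*Krt1*) to 893 UMIs (*Krt10*) in the same bulb cells, where *S100a6* had 91. *Sfn* is itself 1 of the 16 markers by which cells were left out. Whether these *S100a6* UMIs are background or expression was not tested. *S100a4* had 232 UMIs in McSCs (3.06 CPM) and 7 in bulb melanocytes (0.125 CPM), a log2 ratio of -4.61 (-5.94 to -3.55), and 5 UMIs without the keratinocyte-marker cells (log2 ratio -5.10).

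*S100a3*, the hair cuticle gene, was at 0.674 CPM in McSCs and 14.5 CPM in bulb melanocytes (log2 ratio 4.42, 4.02 to 4.86). Its level without the keratinocyte-marker cells was 1.73 CPM in the bulb, from 96 UMIs, and 0.0398 CPM in early anagen, from 3 UMIs, a ratio of 43.4 with a log2 interval of 3.85 to 7.74. The thinned share in those bulb melanocytes was 0.701%. Whether the remaining *S100a3* UMIs are expression in melanocytes was not tested.

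**Figure D2:**
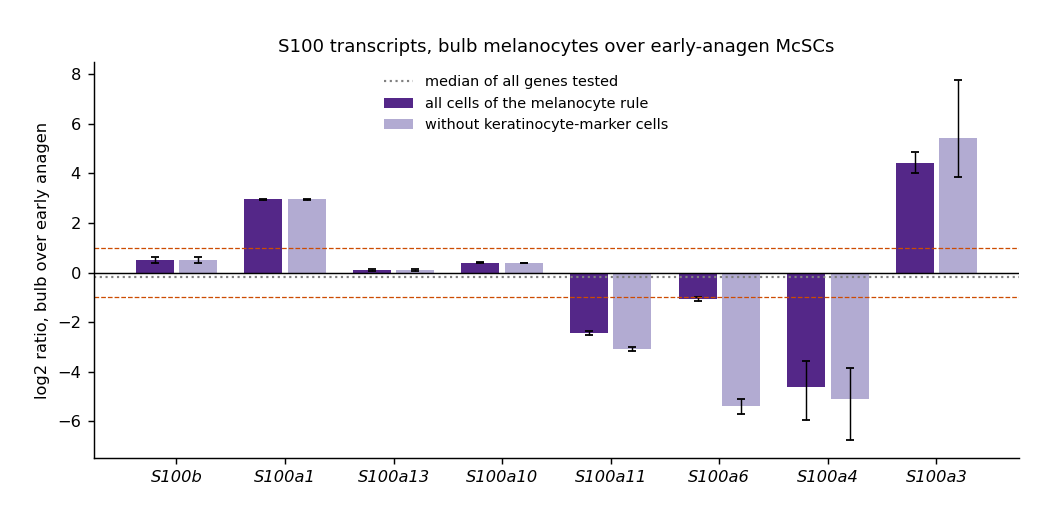
The log2 ratio of summed CPM, bulb melanocytes over early-anagen McSCs, for each S100 gene with all cells and without keratinocyte-marker cells; bars are exact 95% intervals of the ratio, dashed lines mark 2-fold and the dotted line the median of all genes (-0.18). *S100a1* reaches 2.95 and its neighbour *S100a13* 0.11, while *S100a6* moves from -1.08 to -5.38 without those cells.

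The scaling bears on these values. Under edgeR's TMM the median of all genes moved from -0.18 to 0.18, and under DESeq2 size factors to 0.31, and all genes then split into 1943 higher and 1697 lower (TMM) in place of 1305 and 2304. *S100a6* with all cells then fell short of 2-fold, at -0.77 and -0.66, while *S100a1* was at 3.27 and 3.38 and *S100a11* at -2.13 and -2.02.

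**Figure D3:**
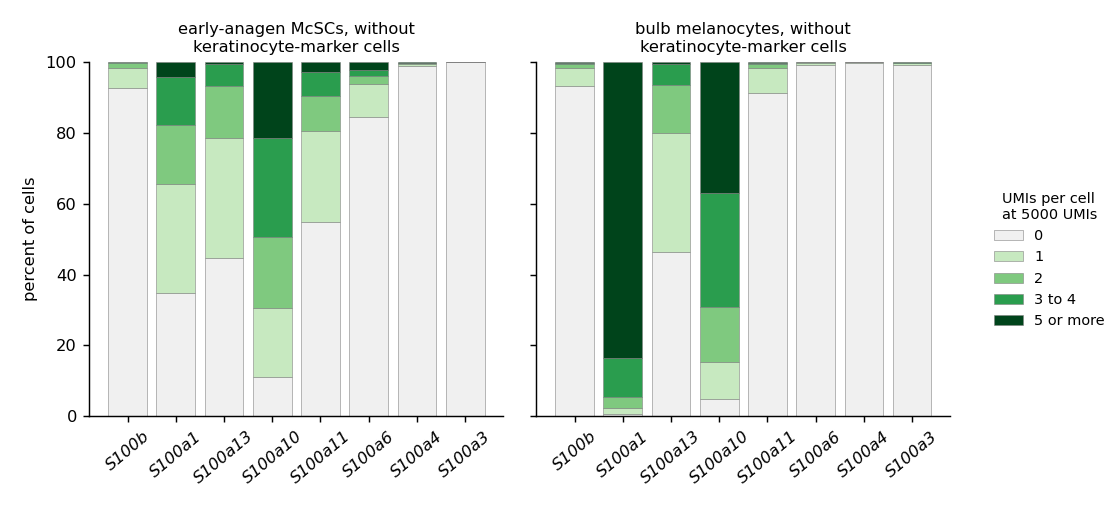
Percent of cells with 0, 1, 2, 3 to 4 and 5 or more UMIs of each S100 gene after thinning every cell to 5000 UMIs, in early-anagen McSCs and bulb melanocytes without keratinocyte-marker cells. *S100a1* has 5 or more UMIs in 83.6% of bulb melanocytes, and *S100a6* is found in 15.3% of McSCs.

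The known partners of these proteins did not all move with them. *Anxa2*, the membrane partner of S100A10, was 2.06-fold higher in bulb melanocytes (982 against 476 CPM), while *Ahnak*, the scaffold held by that complex, was 7.08-fold lower (49.6 against 351 CPM). *Anxa1*, the partner of S100A11, was 7.76-fold lower (92.7 against 719.6 CPM). *Cacybp*, the partner of S100A6, differed by a log2 ratio of -0.41, and *Myh9*, the myosin bound by S100A4, was 8.68-fold lower at 14.1 against 123 CPM. Of 12 annexins 7 passed 10 CPM, of which 2 were at least 2-fold higher (*Anxa2*, *Anxa7*) and 2 lower (*Anxa1*, *Anxa5*), where the shares over all genes were 16.3% higher and 28.7% lower. Of 11 S100 target genes 8 passed, with 1 higher, the matrix metalloproteinase inducer *Bsg* (1576 against 652 CPM), and 3 lower (*Ahnak*, *Myh9*, *Trp53*). Of 11 other EF-hand sensors all passed, with 3 higher, among them the integrin-binding *Cib1* at 377 against 107 CPM, and 1 lower, the reticulum protein *Calu*.

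The other S100 genes listed, which do not include *S100a2*, were low in melanocytes, with 2 of 8 at or above 10 CPM. *S100a8*, which encodes a subunit of calprotectin, was at 40.9 CPM in McSCs and 5.60 CPM in bulb melanocytes (3.96 CPM without the keratinocyte-marker cells), although its usual partner *S100a9* was found in 0.215% of McSCs. *S100a8* had a UMI in 15.4% of thinned McSCs and in 4.42% of thinned epidermal cells (1.45 to 10.0), while its summed level ran the other way, at 71.2 CPM (63.4 to 79.8) in epidermal cells, so no order is read from these. *S100a16* was at 10.5 CPM in bulb melanocytes, but at 0.414 CPM without the keratinocyte-marker cells. Among the fused-type S100 genes of the epidermis, trichohyalin (*Tchh*) alone passed 10 CPM, at 40.8 CPM in the bulb, and none passed without those cells.

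The next comparison asked whether S100 genes differ with *Oca2*, a gene of the melanosome membrane that marks cells further along in differentiation. Cells of early anagen were first thinned to 10000 UMIs, which left 299 *Oca2*+ and 2486 *Oca2*-negative McSCs. Of the 6 members with at least 10 CPM in either class, *S100a1* alone was at least 2-fold higher in *Oca2*+ McSCs, beside 1.56% of all 7778 genes tested, and none was at least 2-fold lower, beside 2.06%. *S100a1* was at 516 CPM (490.3 to 542) in *Oca2*+ and 235 CPM (229 to 241) in *Oca2*-negative McSCs (log2 ratio 1.14, 1.05 to 1.22). By class, it was at 235 CPM with no *Oca2* UMI, 503 with 1, 434 with 2 and 602 with 3 or more, so the order was not strict. The intervals of the classes with 1 and 2 UMIs overlap.

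The other members differed less in early anagen. *S100b* was at 10.4 CPM (7.04 to 14.7) in *Oca2*+ and 17.9 CPM (16.3 to 19.6) in *Oca2*-negative McSCs. *S100a10* was at 471 against 622 CPM and *S100a11* at 130.4 against 176 CPM, log2 ratios of -0.40 and -0.43 with intervals that exclude 0. *S100a13* was at 168 against 175 CPM, with an interval of the log2 ratio from -0.20 to 0.07. *S100a6* was at 127 against 83.2 CPM (log2 0.61, 0.45 to 0.77), but this became 0.01 when all UMIs of each cell were used. The classes were then also drawn from all UMIs, with 454 *Oca2*+ and 2331 *Oca2*-negative McSCs. *S100a6* UMIs were unevenly spread, with 28 cells holding 32.4% of them. *Anxa1* was 2.32-fold lower in *Oca2*+ cells, and *S100a8* was 3.92-fold higher at 130.1 against 33.2 CPM. The *Oca2*+ McSCs also held fewer cycling cells, 25.4% against 37.1%, and among cells with no *Mki67* or *Top2a* UMI the log2 ratio of *S100a1* was 1.06 and that of *S100b* -1.01.

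In the bulb, cells were thinned to 5000 UMIs, which left 3220 *Oca2*+ and 514 *Oca2*-negative melanocytes, and 20 of the 23 keratinocyte-marker cells were among the latter. With all cells, 3 of the 7 members with at least 10 CPM in either group were at least 2-fold lower in *Oca2*+ cells, beside 1.90% of 6880 genes, and none was higher, beside 0.102%. These were *S100a6* (2.42 against 298 CPM), *S100a3* (2.36 against 111 CPM) and *S100a11* (20.0 against 146 CPM). *S100a4* had 3 and 1 UMIs. Without the keratinocyte-marker cells none of the 5 members that reached 10 CPM was 2-fold lower or higher, beside 0.795% of 6795 genes lower and 0.118% higher. *S100a6*, then under that limit, had 16 and 11 UMIs. *S100a11* was then at 19.5 CPM (17.4 to 21.7) against 35.6 CPM (28.6 to 43.9) (log2 ratio -0.87, -1.22 to -0.51). *S100a1* differed little, at 1882 against 1717 CPM (log2 0.13, 0.09 to 0.18). *S100a13* had a log2 ratio of -0.02 (-0.17 to 0.14) and *S100b* of -0.23 (-0.66 to 0.23).

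*S100a1* differed between the libraries also within *Oca2*+ cells. Here *Oca2*+ cells were picked with every cell at 5000 UMIs, and all UMIs of the picked cells were then summed. The 3220 *Oca2*+ bulb melanocytes had a log2 ratio of 1.96 over 211 *Oca2*+ McSCs, less than the unthinned ratio over all cells given above. By *Oca2* class, McSCs with 3 or more *Oca2* UMIs after thinning to 10000 UMIs had *S100a1* at 602 CPM. Bulb melanocytes with none after thinning to 5000 UMIs, without keratinocyte-marker cells, had 1717 CPM. These depths differ, so the classes of the libraries are not matched. Over all bulb melanocytes, 514 had no *Oca2* UMI at 5000 UMIs but 143 with all UMIs. Most cells of that class therefore did hold *Oca2* UMIs before thinning. For *S100a11* the ratio within *Oca2*+ cells was -2.82, and for *S100a10* 0.84.

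**Figure D4:**
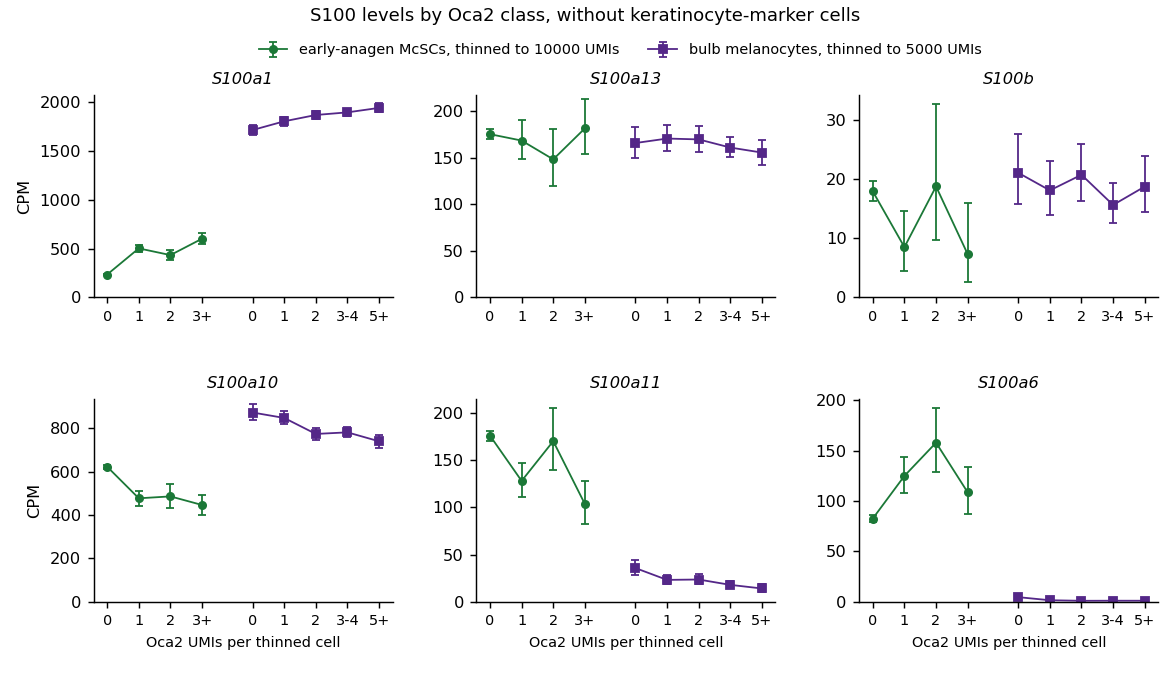
Summed level (CPM, axes from 0) of 6 S100 genes by the number of *Oca2* UMIs per thinned cell. Early-anagen McSCs were thinned to 10000 UMIs and bulb melanocytes to 5000 UMIs, both without keratinocyte-marker cells. Bars are exact 95% Poisson intervals. *S100a1* goes from 235 CPM without *Oca2* to 602 CPM with 3 or more UMIs in McSCs, and *S100a10* from 873 to 740.3 CPM in bulb melanocytes.

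Against epidermal cells of the same early-anagen library, McSCs were higher in *S100b*, *S100a1* and *S100a13* and lower in the remaining members. Of the 7 members with at least 10 CPM in either group, 2 were at least 2-fold higher in McSCs, beside 13.8% of 8505 genes, and 3 were at least 2-fold lower, beside 14.3%. *S100b* was at 14.2 CPM against 1.91 CPM (0.825 to 3.77), from 8 UMIs in epidermal cells. *S100a1* was at 241 against 92.5 CPM (83.5 to 102) and *S100a13* at 154 against 93.5 CPM (84.4 to 103). Melanocyte RNA was present in the epidermal cells, of which 89 of 113 had a *Dct* UMI, and 7 melanocyte genes reached 13.2% to 24.1% of their McSC level there. *S100b* reached 13.5%, inside that range, whereas *S100a1* reached 38.3% and *S100a13* 60.8%. How much of each epidermal value is background was not tested.

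The members at least 2-fold higher in epidermal cells were the cluster genes *S100a6*, *S100a11* and *S100a4*, and *S100a3* from few cells. *S100a6* was at 1976 CPM (1934 to 2019) in epidermal cells against 68.8 CPM in McSCs, and *S100a11* at 1327 CPM (1293 to 1363) against 176 CPM. *S100a4* was at 44.2 against 3.06 CPM, and *S100a3* at 8.37 against 0.674 CPM. The *S100a3* value rested on 35 UMIs, and after thinning 99.1% of the epidermal cells had none. *S100a10* was within 2-fold, at 938 against 610.2 CPM. The McSC level of 7 epidermal genes was 0.0533% to 0.310% of their epidermal level. *S100a6* was at 3.48%, *S100a4* at 6.93% and *S100a11* at 13.3%, all above that range. The melanocyte rule left out cells with 3 or more UMIs of *Krt10* and *Krt14*, so this range cannot separate expression from background. How much of each McSC value is background was not tested. *S100a14* and *S100a16*, further S100 genes of epithelia, were at 808 and 360.4 CPM in epidermal cells, and their McSC levels were 0.438% and 1.61% of these.

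The last comparison set cycling against non-cycling McSCs, since early-anagen stem cells enter division. After thinning, 999 McSCs had a UMI of the division genes *Mki67* or *Top2a* and 1786 had none. None of the 6 members with at least 10 CPM was at least 2-fold higher in cycling cells, beside 4.85% of 7751 genes, and none was at least 2-fold lower, beside 0.439%. *S100a6* came closest at 54.6 against 107 CPM (log2 -0.97, -1.11 to -0.83), and without the keratinocyte-marker cells the log2 ratio was -1.01. *S100b* was at 11.4 against 20.3 CPM, *S100a1* at 194 against 305 CPM and *S100a13* at 143 against 192 CPM. *S100a11* was at 201 against 155 CPM and *S100a10* at 654 against 579 CPM, both slightly higher in cycling cells. *Cacybp* was at 218 against 156 CPM. Cycling cells had more UMIs before thinning, with a median of 34418 UMIs against 21039.

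Some pairs of members varied together from cell to cell within early anagen, while many pairs were near 0. Over 2785 McSCs thinned to 10000 UMIs, the Pearson correlation of log levels was 0.39 for *S100a10* with *S100a11*, 0.34 for *S100a4* with *S100a6*, 0.28 for *S100a6* with *S100a10* and 0.25 for *S100a6* with *S100a11*. The neighbours *S100a1* and *S100a13* had 0.21, and *S100a1* had -0.10 with *S100a10* and -0.09 with *S100a11*. The cells share a library, a depth and a total that all genes divide. The genes most like *S100a1* were *Dct* (0.40), *Cd63* (0.36) and *Pmel* (0.35), which encode a melanin enzyme and melanosome proteins. Those most like *S100a10* were *S100a11* (0.39), *Tmsb10* (0.38) and *Tagln2* (0.37), and those most like *S100a11* were *Tmsb10* (0.40), *S100a10* (0.39) and *Anxa2* (0.34). For *S100a13* they were *Itm2b* (0.27), *Selenop* (0.23) and *Apoe* (0.21). In bulb melanocytes *S100a1* went with *Ptgds* (0.31), *Trpm1* (0.23) and *Cyb5a* (0.22), and without the keratinocyte-marker cells *Mlana* (0.21) took the place of *Trpm1*. There the correlations of *S100a10* that were largest in size were negative, with *Pmel* (-0.18) and *Dct* (-0.18). In McSCs *S100a10* was negative with them too, at -0.30 with *Pmel* and -0.33 with *Dct*, and *S100a11* had -0.30 with *Dct*.

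*S100a6* had no UMI in 2144 of the thinned McSCs, 1 to 4 in 536 and 5 or more in 105, classes drawn after the values had been seen. In this order *S100a4* was at 0.840, 4.10 and 66.7 CPM, *S100a11* at 145, 223 and 447 CPM, *S100a10* at 548, 702 and 1305 CPM, and *S100a13* at 163, 193 and 310.5 CPM. *S100a1* was at 259, 271 and 355 CPM. Of the pigment genes, *Pmel* ran the other way at 4698, 3898 and 3197 CPM, whereas *Oca2* was at 23.4, 19.0 and 39.0 CPM. The median depth before thinning was 25148, 23416 and 16791 UMIs. The 16 keratinocyte markers together were at 16.4, 51.5 and 38.1 CPM in these classes. Some cells had none of their UMIs. Of these, 83 had 5 or more *S100a6* UMIs, with *S100a4* at 54.2 CPM, and 1672 had no *S100a6* UMI, with *S100a4* at 0.778 CPM. *S100a14*, an S100 gene of epithelia, was at 8.43 and 0.837 CPM in the same classes. The 16 markers leave out *Krt10*, *Krt14* and *Lgals7*, so such cells can still hold keratinocyte RNA. How much of these values is keratinocyte RNA was not tested.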

How the data were processed

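The data were 2 single-cell RNA-seq libraries, and the files deposited by the authors held raw UMI counts for every gene and barcode. Per the labels and the study's methods, the authors had made them with Cell Ranger 6.0.1 on mm10/GRCm38. The lowest total of a barcode was 500 UMIs for early anagen and 504 for the bulb. The 8 genes, the gene lists and the comparisons were chosen with earlier results of these data known.

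Cells were chosen by the rule given above. UMI counts were summed per group of cells and expressed as CPM, with exact 95% Poisson intervals. Intervals of log2 ratios were exact (binomial, conditional on both counts), and those of shares of cells were Clopper-Pearson intervals. For shares, *Oca2* classes and cycling, each cell was thinned without replacement (seed 1) to 5000 or 10000 UMIs. No cell of the melanocyte rule was too shallow for 5000 UMIs, and no early-anagen cell for 10000. Bulb melanocytes too shallow for 10000 UMIs were left out of the settings at that depth. The melanocytes held 75718468 UMIs in early anagen and 55883067 in the bulb. Since each condition had 1 library and cells are not replicates, no p-value was computed. Calls were a difference of at least 2-fold, set beside genes with at least 10 CPM in either group. PCR duplicates were removed by UMI, and intervals cover counting error only. No doublet caller was run, and an alternative left out the 5% of cells with the most UMIs. Clusters were not used. Scaling alternatives used edgeR 4.0.16 (TMM) and DESeq2 1.42.0 factors in R 4.3.3. Other work used Python 3.11.15, numpy 2.4.6, scipy 1.17.1 and pandas 2.3.3. The interval and thinning steps were tested on simulated data. Bulb melanocytes were not compared with epidermal cells, since the rule found 1 such cell in that library.

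Named were all 8 members, other S100 genes at 10 CPM or more, and genes of the annexin, target and EF-hand lists that were at 50 CPM or more and past 2-fold, always with *Anxa1*, *Anxa2*, *Ahnak*, *Cacybp* and *Fgf1*. Marker and background genes, and the other S100 genes under 10 CPM, were named after their values had been seen. For members found in at least 50% of thinned cells, the 3 genes with the highest Pearson correlation were named. Pigment genes with negative correlations were named after their values had been seen.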

Additional observations from a re-analysis of the deposited data

Results flagged for a closer look

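*S100a6* was noted because its ratio between *Oca2*+ and *Oca2*-negative cells lay on opposite sides of 0 in the libraries. On the log2 scale the early-anagen value was 0.61 and the bulb value -6.94, each beyond its counting interval. The difference between the libraries was not tested, since each had 1 sample. In the bulb 20 of the 23 keratinocyte-marker cells were *Oca2*-negative, and without them the log2 ratio was -2.16, from 16 and 11 UMIs. In early anagen it was 0.63 without such cells and 0.01 with all UMIs of each cell, which also set the *Oca2* classes.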

How the results depend on the processing

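The call of *S100a1* as higher and of *S100a11* as lower in bulb melanocytes held under all alternatives tried. With the mitochondrial limit at 10%, 2 of the 8 genes were at least 2-fold lower in place of 3, beside 2299 of 8027 genes. The median log2 ratio of the 8 genes, 0.25, turned to -0.012 after thinning to 5000 UMIs, and *S100a13* turned to -0.073 there, to -0.048 with cells weighted equally and to -0.072 with the reduced total. That median was 0.22 with 5000 UMIs as minimum in both libraries or without the 5% of cells with the most UMIs. It was 0.015 with equal weights, 0.56 under TMM, 0.68 under DESeq2 factors and 0.071 with the reduced total. Among *Oca2*+ cells it was 0.13, where 1 gene was higher, beside 1027 of 7908 genes with at least 10 CPM. In early anagen the genes lower in *Oca2*+ cells became 1 without cycling cells, without *Krt5*, *Krt10* and *Krt14* UMIs, or at 5000 UMIs. Beside these, in the same order, 175 of 7668, 196 of 7726 and 289 of 7861 genes with at least 10 CPM were lower. In the bulb the median of the *Oca2* ratio, -0.64, was -2.32 with all UMIs, where 1 gene was higher, beside 64 of 7142 genes. At 10000 UMIs it was -2.02, from 3127 *Oca2*+ and 161 *Oca2*-negative cells, with shallower cells left out. Without keratinocyte-marker cells the genes lower became 1, beside 54 of 6795 genes. The member counts and median log2 ratios in this paragraph run over members with a UMI in both groups, with no limit on the level. These were 7 or 8 genes, depending on the setting. The genes beside them had at least 10 CPM in either group and were counted even without a UMI in the other. Where all UMIs were used, the *Oca2* and cycling classes were drawn from all UMIs too. The gene left in the bulb, *S100a6*, was under 10 CPM. Against epidermal cells the median, -1.77, was -1.49 for those with at least 5000 CPM of keratins and -2.79 for those without *Dct*. In the latter setting 7 members had a UMI in both groups, of which 1 was higher, beside 2581 of 8642 genes. The member left out was not counted in either direction. In cycling cells the median, -0.42, was -0.54 with at least 2 UMIs and -0.59 with all UMIs. In each of these 2 genes were lower, beside 78 of 7809 and 37 of 7734 genes. Without keratinocyte-marker cells 1 gene was lower, beside 30 of 7747 genes. The median thinned share over the 8 genes was 30.3% in McSCs, 7.94% in bulb melanocytes and 37.6% in epidermal cells. It was 59.1%, 17.9% and 79.2% with all UMIs, and 12.8%, 1.83% and 11.1% for at least 2 UMIs. At 10000 UMIs, with shallower bulb melanocytes left out, it was 43.1%, 13.7% and 53.1%. The keratinocyte-marker setting was chosen after seeing the data, and the other causes were not tested. Bulb melanocytes against epidermal cells were not run under any setting. No paired analysis was possible because each condition had 1 library. Depth limits *S100a4*, *S100a3* and *Fgf1*, which had few UMIs.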

Other observations

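Cells that passed the quality limits but met neither the melanocyte nor the epidermal rule entered no comparison. In the bulb library there were 39 of them, with *S100a6* at 2102 CPM, *S100a3* at 2067, *S100a1* at 1193, *S100a11* at 950.2, *S100a16* at 804, *S100a14* at 647, *S100a13* at 148 and *S100b* at 5.48 CPM. Their hair matrix and shaft markers summed to 1992 CPM and their melanocyte markers to 38609 CPM. In the early-anagen library there were 566, with *S100a10* at 692 CPM, *S100a11* at 271, *S100a1* at 258, *S100a6* at 175, *S100a13* at 161 and *S100b* at 14.7 CPM.

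*S100a8* was at 83.8 CPM in the 105 McSCs with 5 or more *S100a6* UMIs and at 41.7 CPM in those with none. By *Oca2* class it was at 33.2, 99.3, 116 and 199 CPM in McSCs with 0, 1, 2 and 3 or more *Oca2* UMIs, and *S100a9* was found in 0.215% of McSCs.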
